A study of Mus musculus with 8 samples.

Results

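The serum amyloid A genes and other acute phase genes were followed in mouse testis after a lipopolysaccharide challenge. The set held 10 genes, taken by symbol through their Ensembl identifiers, out of 55421 genes listed: Saa1, Saa2, Saa3, Serpina3n, Serpina3g, Serpina3m, Lrg1, Orm1, Hp and Ptx3. Of these, 9 passed the filter on low counts among 26414 genes tested, and Orm1 did not. RNA sequencing covered 8 libraries from testis of wild-type male mice, 2 in each of 4 groups. In LPS+DHEA+Nb, LPS was followed 6 h later by DHEA together with an agent the labels name Nb23-bi. In LPS+DHEA, LPS was followed 6 h later by DHEA alone, LPS mice had LPS alone, and CTRL mice had PBS. All agents were given once, intraperitoneally. The labels state no strain, age, dose or time of tissue collection, nor what kind of agent Nb23-bi is. No group had Nb23-bi without DHEA. Whether the 2 libraries of a group came from separate animals is not stated, so p-values measure the spread between these libraries, which may be technical.

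The acute phase response is the rapid change in plasma proteins that follows infection or injury. In the liver it is driven mainly by interleukin 6 acting through STAT3, together with interleukin 1 and tumour necrosis factor acting through NF-kB and C/EBP factors. Several of the genes are also induced outside the liver. In mice, Saa1 and Saa2 are the main hepatic serum amyloid A genes, while Saa3 is expressed in macrophages, fat and epithelia.

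The libraries held 61.3 to 64.5 M counts, so that 1 count equalled 0.0156 to 0.0164 CPM (counts per M counts of a library). Germ cell transcripts were abundant: Tnp1, a spermatid transition protein, ranged from 1578 to 1972 CPM over the 8 libraries. The tissue label therefore had its defining markers, although the extraction protocol in the labels speaks of islets. In bulk tissue, fewer cells of a type and less RNA per cell cannot be told apart.

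LPS raised Saa3, Serpina3n, Lrg1 and Saa1, and the levels then differed between the treated groups. Saa3 was 115-fold higher in LPS than in CTRL, Serpina3n 14.4-fold, Lrg1 5.75-fold and Saa1 5.38-fold. In LPS+DHEA the levels of these genes lay below those of LPS in both libraries, but no gene of the set passed the test in LPS+DHEA versus LPS. After LPS, DHEA and Nb23-bi together, Saa3 was 9.49-fold lower than in LPS, Serpina3n 4.38-fold lower and Lrg1 4.22-fold lower, and these passed the test. The Lrg1 call held in 15 of 15 alternative fits, and those of Saa3 and Serpina3n in 8 of 15 each. Lrg1 also fell in LPS+DHEA+Nb relative to LPS+DHEA, where it was 2.65-fold lower.

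**Figure D1:**
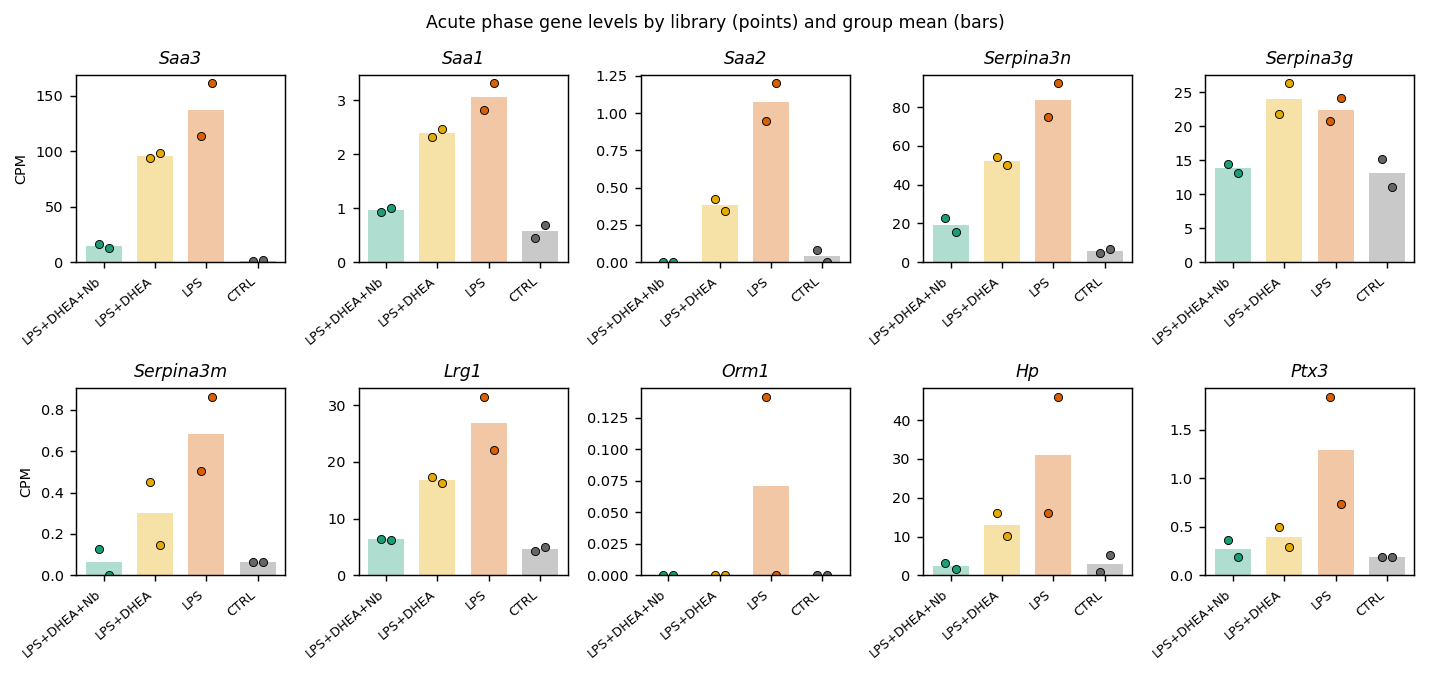
Levels of the 10 genes in CPM (vertical axes, each starting at 0 with its own scale) in the 4 groups; points are libraries and bars are means of 2. Saa3 sits at 16.6 and 12.3 CPM in LPS+DHEA+Nb, 93.9 and 98.1 CPM in LPS+DHEA, 114 and 161.1 CPM in LPS and 0.895 and 1.48 CPM in CTRL.

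The serum amyloid A proteins travel on high-density lipoprotein and can attract leukocytes, and their 3 genes in the set lie together on chromosome 7 (GRCm38, GENCODE M21). Saa3 is at chr7:46711998-46715700 on the minus strand, Saa1 at chr7:46740497-46742980 on the minus strand and Saa2 at chr7:46751790-46754313 on the plus strand. Their coding sequences bear on how far their counts can be told apart. The first 120 of 369 coding bases of each, from GENCODE M21 transcripts, are shown 5′ to 3′, with capitals where a gene differs from Saa1.
Saa1: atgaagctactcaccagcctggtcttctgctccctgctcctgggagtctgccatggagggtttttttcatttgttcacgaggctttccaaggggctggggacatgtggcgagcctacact
Saa2: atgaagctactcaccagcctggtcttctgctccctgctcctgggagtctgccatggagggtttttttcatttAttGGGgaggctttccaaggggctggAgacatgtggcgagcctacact
Saa3: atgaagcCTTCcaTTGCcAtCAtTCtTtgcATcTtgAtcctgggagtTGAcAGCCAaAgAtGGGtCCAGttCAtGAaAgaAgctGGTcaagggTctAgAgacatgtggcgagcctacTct
Saa2 differed from Saa1 at 5 bases of this stretch and at 18 over the whole coding sequence, an identity of 95.1%. Saa3 differed from Saa1 at 48 bases of the stretch and at 99 in all, an identity of 73.2%. Shared 50-base words were sought in all annotated transcripts of a gene pooled, which reach beyond the principal transcript. Saa1 had 2519 such words, while its principal transcript has 609 bases. Of the words of Saa1, 31.1% also occurred in Saa2, and 30% of those of Saa2 in Saa1. Of the 50-base words of Saa3, 3.57% occurred in any other gene. The labels do not state how reads with several matches were counted, so the division of counts between Saa1 and Saa2 is uncertain.

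The start regions of the 3 genes are shown so that their letters can be compared. The sequences are from RefSeq (GRCm38.p6), which held 7 of the 10 genes, and run from 250 bases before the start to 50 after it, 5′ to 3′ on the gene's strand. Capitals mark a match to the C/EBP motif TTNNGNAAT, searched on both strands.
Saa3: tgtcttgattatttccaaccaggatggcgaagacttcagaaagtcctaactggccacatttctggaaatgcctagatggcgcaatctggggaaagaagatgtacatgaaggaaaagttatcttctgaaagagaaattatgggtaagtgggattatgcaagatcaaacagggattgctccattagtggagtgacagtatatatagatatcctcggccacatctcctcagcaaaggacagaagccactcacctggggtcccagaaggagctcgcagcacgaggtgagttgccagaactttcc
Saa1: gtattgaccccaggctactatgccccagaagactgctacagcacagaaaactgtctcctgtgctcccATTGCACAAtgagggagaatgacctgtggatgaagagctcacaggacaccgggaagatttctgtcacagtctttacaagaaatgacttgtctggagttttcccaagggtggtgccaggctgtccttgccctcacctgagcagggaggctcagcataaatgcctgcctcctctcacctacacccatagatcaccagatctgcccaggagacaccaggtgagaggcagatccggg
Saa2: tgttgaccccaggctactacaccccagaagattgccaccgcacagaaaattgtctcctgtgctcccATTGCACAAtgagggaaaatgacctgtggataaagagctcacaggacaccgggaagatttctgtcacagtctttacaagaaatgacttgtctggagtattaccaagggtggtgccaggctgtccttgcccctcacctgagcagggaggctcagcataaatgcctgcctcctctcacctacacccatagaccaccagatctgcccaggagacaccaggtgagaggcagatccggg
Saa1 and Saa2 each held 1 match, with the same letters, beginning 183 bases before the Saa1 start and 184 before the Saa2 start. Saa3 had no match to this motif, to the STAT motif TTCNNNGAA or to the NF-kB consensus. The regions searched were chr7:46715627-46715926 for Saa3, chr7:46742931-46743230 for Saa1 and chr7:46751583-46751882 for Saa2. Of 32851 promoters of this length, 11.5% held the C/EBP motif, 8.3% the STAT motif and 4.51% the NF-kB consensus. Among the other promoters found, Serpina3n held 2 C/EBP matches, Serpina3g held 1 of each motif, Ptx3 held overlapping NF-kB matches on both strands, and Lrg1 held none. A match is a description of the letters and not a site.

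Per kb of transcript, Saa3 had the highest mean level of the set in the 3 groups given LPS. Saa3 measured 16.6 and 12.3 CPM in the LPS+DHEA+Nb libraries, 93.9 and 98.1 CPM in LPS+DHEA, 114 and 161.1 CPM in LPS, and 0.895 and 1.48 CPM in CTRL. No pair of groups overlapped, and the order was LPS, LPS+DHEA, LPS+DHEA+Nb and CTRL from high to low. The log2 fold change in LPS versus CTRL was 6.85 ± 0.33 (SE, edgeR quasi-likelihood test, adjusted p = 0.00144). In LPS+DHEA versus LPS it was -0.52 ± 0.24 (adjusted p = 1), so those neighbours in the order did not differ beyond their spread. Between LPS+DHEA+Nb and LPS it was -3.25 ± 0.27 (adjusted p = 0.0182), past the threshold, a call that held in 8 of 15 alternative fits. Relative to LPS+DHEA it was -2.73 ± 0.26 and missed the threshold (adjusted p = 0.0534). Both LPS+DHEA+Nb libraries also lay above CTRL, at a log2 fold change of 3.602 ± 0.31 that was not past the threshold (adjusted p = 0.0656).

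Saa1 measured 0.928 and 0.993 CPM in LPS+DHEA+Nb, 2.32 and 2.47 CPM in LPS+DHEA, 2.82 and 3.31 CPM in LPS, and 0.447 and 0.688 CPM in CTRL. Its groups were in the same order as those of Saa3 and did not overlap. Saa1 rose in LPS versus CTRL, with a log2 fold change of 2.43 ± 0.32 (adjusted p = 0.00976). This call was lost without CTRL replicate 1 (adjusted p = 0.0686). Its log2 fold change was -1.67 ± 0.31 in LPS+DHEA+Nb versus LPS and was not past the threshold (adjusted p = 0.0866), although DESeq2 called it.

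Saa2 had the lowest level per kb of the serum amyloid A genes of the set, with no count in either LPS+DHEA+Nb library, 27 and 21 counts in LPS+DHEA, 60 and 75 in LPS, and 5 and 0 in CTRL. The LPS libraries were the highest and the LPS+DHEA+Nb libraries the lowest, and LPS+DHEA+Nb overlapped CTRL at 0. Against a floor of 3 counts per library, Saa2 was at least 22.7-fold lower in LPS+DHEA+Nb than in LPS and at least 8.1-fold lower than in LPS+DHEA. Neither comparison passed the test (adjusted p = 0.0768 and 0.318), nor did LPS versus CTRL (adjusted p = 0.176). Saa4, the gene between Saa3 and Saa1 that encodes a constitutive family member, had 10 and 7 counts in LPS+DHEA+Nb, 7 and 23 in LPS+DHEA, 32 and 29 in LPS and 12 and 17 in CTRL, and passed no test.

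Divided by the length of the principal transcript, the mean level of Saa3 was 26.1 CPM per kb in LPS+DHEA+Nb, 173 in LPS+DHEA, 248 in LPS and 2.14 in CTRL. The mean level of Saa1 was 1.58 CPM per kb in LPS+DHEA+Nb, 3.93 in LPS+DHEA, 5.03 in LPS and 0.932 in CTRL. Saa3 was thus 16.5 times Saa1 per kb in LPS+DHEA+Nb, 44 times in LPS+DHEA, 49.3 times in LPS and 2.3 times in CTRL. This ratio is a level comparison and carries no test.

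**Figure D2:**
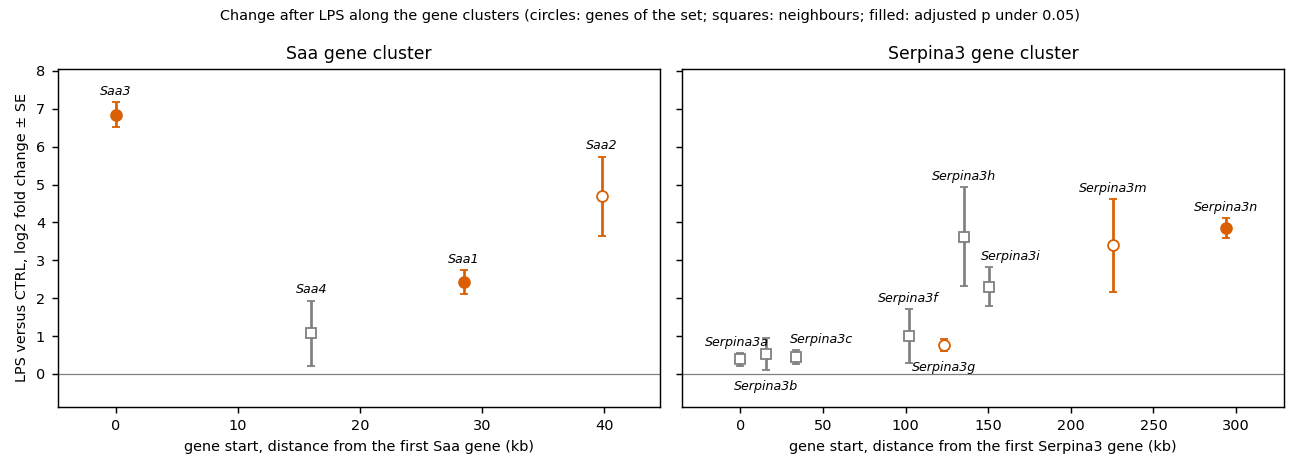
Fitted log2 fold change ± SE in LPS versus CTRL (vertical axis) against the gene start's distance in kb from the first gene of its cluster (horizontal axis), for Saa genes on the left and Serpina3 genes on the right; circles are genes of the set, squares are neighbours, and filled symbols passed the test. Saa3 at 6.85, Saa1 at 2.43 and Serpina3n at 3.85 are filled; Serpina3j was not tested, and Serpina3k is left out because its CTRL libraries had no counts.

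Among the protease inhibitors, Serpina3n, a mouse counterpart of human alpha-1-antichymotrypsin at chr12:104406729-104414329, had the highest level per kb in LPS. Serpina3n measured 22.7 and 15.4 CPM in LPS+DHEA+Nb, 54.2 and 50.2 CPM in LPS+DHEA, 74.8 and 92.2 CPM in LPS, and 4.70 and 6.91 CPM in CTRL. The 4 groups did not overlap and followed the order seen for Saa3. Its log2 fold change was 3.85 ± 0.26 in LPS versus CTRL (adjusted p = 0.00266) and -2.13 ± 0.24 in LPS+DHEA+Nb versus LPS (adjusted p = 0.0404), the second of which held in 8 of 15 alternative fits. In LPS+DHEA versus LPS it was -0.68 ± 0.23 (adjusted p = 1), and in LPS+DHEA+Nb versus LPS+DHEA -1.46 ± 0.24 (adjusted p = 0.249).

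Serpina3g, an inhibitor of lysosomal cysteine proteases in mouse blood cells, lies at chr12:104236245-104241939. Serpina3g measured 14.5 and 13.2 CPM in LPS+DHEA+Nb, 21.9 and 26.3 CPM in LPS+DHEA, 20.7 and 24.2 CPM in LPS, and 15.2 and 11.1 CPM in CTRL. LPS+DHEA overlapped LPS, and LPS+DHEA+Nb overlapped CTRL, while the first pair lay above the second in every library. The log2 fold change was 0.77 ± 0.16 in LPS versus CTRL (adjusted p = 0.126) and -0.70 ± 0.16 in LPS+DHEA+Nb versus LPS (adjusted p = 0.225), and neither passed the test. In LPS+DHEA versus LPS it was 0.10 ± 0.16, the one positive value of the set in that comparison, and its sign turned without LPS replicate 1 or without LPS+DHEA replicate 2.

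Serpina3m, at chr12:104338486-104394257, had 8 and 0 counts in LPS+DHEA+Nb, 29 and 9 in LPS+DHEA, 32 and 54 in LPS, and 4 and 4 in CTRL. LPS lay above the other groups, but the LPS+DHEA libraries differed widely, and no test was passed (adjusted p = 0.556 in LPS versus CTRL). Its annotated start is that of Serpina3k, whose region it overlaps, and 16% of its 50-base words occur there, so its counts are uncertain. Of the 8 other Serpina3 genes of the cluster, 7 were tested and edgeR called 0 in LPS versus CTRL, with 5 at an unadjusted p under 0.05 (7.11% of all genes tested) and 2 called by DESeq2. Their median log2 fold change was 0.996, also with Serpina3k, which had no CTRL counts, at its bound. Serpina3k and Serpina3h, which had 14 and 0 counts in CTRL, passed the filter only through libraries given LPS. The counts and the median of this list therefore support nothing further. Serpina3i was at 2.30 ± 0.52 (adjusted p = 0.157).

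Lrg1, a leucine-rich secreted glycoprotein that modulates TGF-beta signalling in blood vessels, lies at chr17:56119678-56122001 and shared no 50-base word with another gene. Lrg1 measured 6.42 and 6.31 CPM in LPS+DHEA+Nb, 17.4 and 16.3 CPM in LPS+DHEA, 31.5 and 22.2 CPM in LPS, and 4.33 and 5.00 CPM in CTRL. No groups overlapped, and LPS+DHEA+Nb lay close above CTRL. The log2 fold change was 2.52 ± 0.18 in LPS versus CTRL (adjusted p = 0.000163), -0.67 ± 0.17 in LPS+DHEA versus LPS (adjusted p = 1) and -2.08 ± 0.17 in LPS+DHEA+Nb versus LPS (adjusted p = 0.00077). The addition of Nb23-bi to DHEA, LPS+DHEA+Nb versus LPS+DHEA, gave -1.40 ± 0.17 (adjusted p = 0.0172), the one call of the set in that comparison. That call was lost without LPS+DHEA replicate 1 (adjusted p = 0.0887).

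Hp encodes haptoglobin, which binds free haemoglobin, and lies at chr8:109575128-109579172. Hp measured 3.21 and 1.58 CPM in LPS+DHEA+Nb, 16.1 and 10.1 CPM in LPS+DHEA, 16.2 and 46.0 CPM in LPS, and 0.847 and 5.25 CPM in CTRL. The lower LPS library was level with the higher LPS+DHEA library, and the libraries of LPS and of CTRL each differed widely within their group. No comparison passed the test, LPS versus CTRL standing at a log2 fold change of 3.35 ± 1.10 (adjusted p = 0.653). Cfd, which encodes the fat cell product adipsin, measured 1.07 and 1.89 CPM in LPS+DHEA+Nb, 4.91 and 1.54 CPM in LPS+DHEA, 2.83 and 10.95 CPM in LPS, and 1.41 and 4.11 CPM in CTRL. In LPS+DHEA, LPS and CTRL the library higher for Hp was also the higher for Cfd, for Retn and for the sum of 7 adipocyte markers. That sum was 18.7 and 19.1 CPM in LPS+DHEA+Nb, 23.7 and 18.5 in LPS+DHEA, 22.3 and 36.8 in LPS, and 17.54 and 25.01 in CTRL. In LPS+DHEA+Nb Cfd, Retn and the sum ran opposite to Hp. Other markers of the 7 also did: Adipoq in LPS+DHEA (7.01 and 10.48 CPM), and Plin1 in LPS+DHEA (2.22 and 2.58 CPM) and LPS (4.58 and 2.94 CPM). The part of the adipocyte markers in the Hp values was not tested.

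Ptx3 encodes a long pentraxin that binds microbes and complement C1q, at chr3:66219910-66225805. Ptx3 measured 0.362 and 0.189 CPM in LPS+DHEA+Nb, 0.501 and 0.294 CPM in LPS+DHEA, 1.84 and 0.735 CPM in LPS, and 0.192 and 0.188 CPM in CTRL. Both LPS libraries stood above the other 6, at a log2 fold change of 2.75 ± 0.65 versus CTRL that missed the threshold (adjusted p = 0.184). Orm1, which encodes the carrier protein orosomucoid at chr4:63344560-63348163, had 9 counts in LPS replicate 1 and 0 in each of the other 7 libraries.

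**Figure D3:**
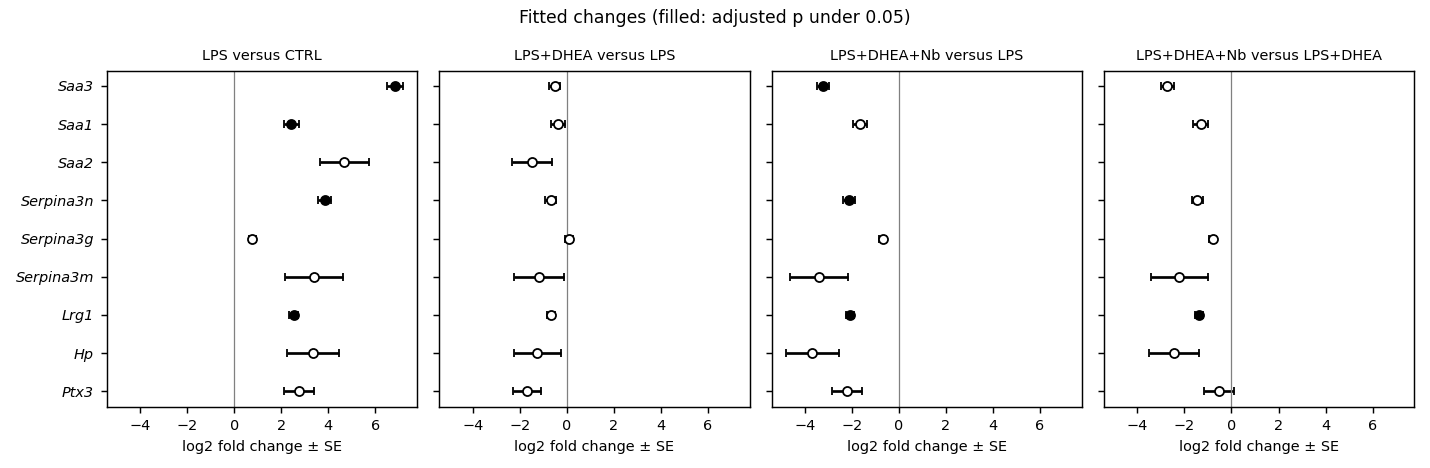
Fitted log2 fold change ± SE (horizontal axes) of the 9 genes tested in 4 comparisons; filled symbols had an adjusted p under 0.05, and the fitted value of Saa2 is left out against LPS+DHEA+Nb, where it had no counts. Filled symbols number 4 in LPS versus CTRL, 3 in LPS+DHEA+Nb versus LPS, 1 in LPS+DHEA+Nb versus LPS+DHEA and none in LPS+DHEA versus LPS.

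Counted over the set, 4 of the 10 genes rose in LPS versus CTRL, where 0.257% of all genes tested were called higher. All 9 genes tested lay above CTRL in both LPS libraries, which 18.9% of all genes tested did. Their median log2 fold change was 3.35, against -0.0016 over all genes tested. Saa2 and Serpina3m passed the filter only through the LPS or LPS+DHEA libraries, and the set was chosen with earlier results of these data known. The counts over the genes tested, here and in the comparisons below, therefore describe the set and support nothing further.

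In LPS+DHEA versus LPS, edgeR called 0 of the 10 genes, where 0.0189% of all genes tested were called. At an unadjusted p under 0.05 there were 3 (Serpina3n, Lrg1 and Ptx3), where 3.51% of all genes tested were, and DESeq2 also called 0. In this comparison 8 of the 9 genes lay below LPS with no overlap, which 15.7% of all genes tested did, with a median log2 fold change of -0.68.

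With Nb23-bi, LPS+DHEA+Nb versus LPS, 3 of the 10 genes fell, where 0.129% of all genes tested were called lower. All 9 tested genes lay below LPS with no overlap, against 18.6% of all genes tested, and the median was -2.22. Here too Saa2 and Serpina3m were tested only through their LPS or LPS+DHEA libraries. The calls of Saa3 and Serpina3n in this comparison each held in 8 of 15 alternative fits. Saa3 was not called without either LPS+DHEA+Nb library (adjusted p = 0.0523 and 0.108) or without either LPS+DHEA library (adjusted p = 0.0898 each), and Serpina3n was not called without either LPS library (adjusted p = 0.0689 and 0.14) or without either LPS+DHEA library (adjusted p = 0.14 and 0.141). DESeq2 called 7 genes here, the additional ones being Saa1, Saa2, Serpina3g and Hp. Over all genes DESeq2 called more than edgeR in every comparison, with totals given under the dependence on processing. Its counts throughout are therefore not to be read against the edgeR shares.

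Against LPS+DHEA, 1 of the 10 genes fell in LPS+DHEA+Nb, where 0.0568% of all genes tested were called lower. There 8 of the 9 genes lay below LPS+DHEA with no overlap, against 17.1% of all genes tested, at a median of -1.46. DESeq2 called 5, with Saa2, Saa3, Serpina3n and Serpina3g in addition to Lrg1. Saa3 was called in 7 of 15 alternative fits, but not with other scalings, without the filter or with the replicate block. Nor was it called in any fit that left out a library of the groups compared. Serpina3n was called in 2 of 15. With 1 library left out, the log2 fold change ran from -2.955 to -2.524 for Saa3 and from -1.756 to -1.198 for Serpina3n. The medians in these last comparisons were the same with Saa2 set at its bound.

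Set against CTRL, LPS+DHEA still had 4 genes higher (Saa3, Serpina3n, Lrg1 and Saa1), where 0.136% of all genes tested were called higher. LPS+DHEA+Nb had 0 called by edgeR, where 0.0303% of all genes tested were called, with 5 at an unadjusted p under 0.05 (4.28% of all genes tested) and 2 called by DESeq2 (Saa3 and Serpina3n). In LPS+DHEA versus CTRL, Saa1 lost its call without any single CTRL, LPS or LPS+DHEA library (adjusted p from 0.0515 to 0.161), and Serpina3n lost it without LPS+DHEA replicate 1 (0.0947) or replicate 2 (0.058). In LPS+DHEA+Nb versus CTRL, Saa3 gained a call without CTRL replicate 2 (adjusted p = 0.0415), LPS replicate 1 (0.0177) or LPS replicate 2 (0.0153), and Serpina3n gained one without LPS+DHEA+Nb replicate 2 (0.023). A p that misses the threshold does not show that the levels were equal to CTRL. These comparisons share the LPS, LPS+DHEA or CTRL libraries with those above and are no independent repeats of them.

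For the 4 genes that rose after LPS, the share of the LPS change that each treated library kept was its CPM minus the CTRL mean, divided by the LPS mean minus the CTRL mean. Saa3 kept 11.3% and 8.17% in the LPS+DHEA+Nb libraries, against 68% and 71% in the LPS+DHEA libraries. Saa1 kept 14.5% and 17.1% in LPS+DHEA+Nb, against 70% and 76.2% in LPS+DHEA. Lrg1 kept 7.91% and 7.41% in LPS+DHEA+Nb, against 57.2% and 52.6% in LPS+DHEA. In these 3 genes both LPS+DHEA+Nb libraries kept less than either LPS+DHEA library. Serpina3n kept 21.7% and 12.3% in LPS+DHEA+Nb, against 62.3% and 57.1% in LPS+DHEA. Serpina3n thus showed the same separation. With each treated library set against each LPS library in turn, the Saa3 share ran from 6.97% to 13.7% in LPS+DHEA+Nb and from 58% to 85.9% in LPS+DHEA. The LPS and CTRL means are common to all shares, so no test is given. On a log2 scale the Saa3 share was 52.1% in LPS+DHEA+Nb and 92.6% in LPS+DHEA.

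**Figure D4:**
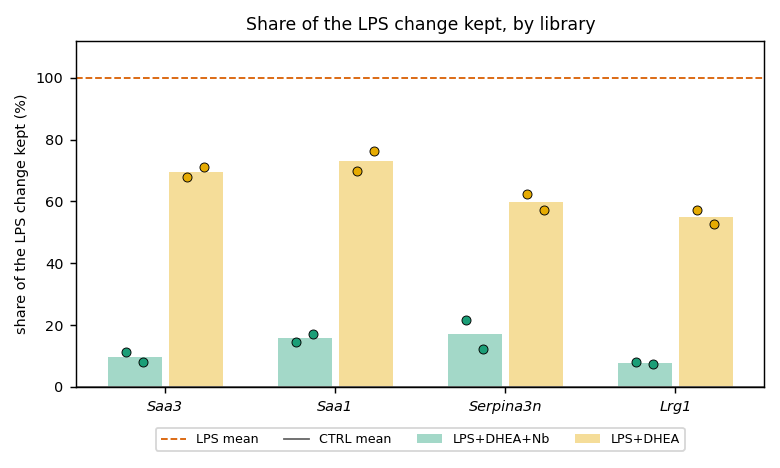
Share of the LPS change kept, in percent (vertical axis, starting at 0), for the 4 genes called in LPS versus CTRL; points are libraries, bars are means of 2, the dashed line is the LPS mean and the bottom axis the CTRL mean. LPS+DHEA+Nb means run from 7.66% (Lrg1) to 17% (Serpina3n) and LPS+DHEA means from 54.9% (Lrg1) to 73.1% (Saa1).

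Outside the set, the genes whose log2 CPM over the 8 libraries was most like that of Saa3 included Timp1 (Pearson r = 0.994), which encodes a metalloprotease inhibitor, the complement factor gene Cfb (0.979) and Tmem176a (0.978). Within the set, r with Saa3 ran from 0.712 (Ptx3) to 0.992 (Serpina3n). These 8 libraries form 4 treated groups, so r is given as a description, with no test. Timp1 measured 3.96 and 2.57 CPM in LPS+DHEA+Nb, 7.49 and 9.50 CPM in LPS+DHEA, 10.64 and 10.98 CPM in LPS, and 0.863 and 1.09 CPM in CTRL.

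Of 34 other acute phase genes, 28 were tested. In LPS versus CTRL 5 were called higher (0.257% of all genes tested) and 0 lower. For LPS+DHEA versus LPS edgeR called 0 (0.0189% of all genes tested), with 4 at an unadjusted p under 0.05 (3.51%) and 0 by DESeq2. Lower calls numbered 4 in LPS+DHEA+Nb versus LPS (0.129% of all genes tested) and 2 in LPS+DHEA+Nb versus LPS+DHEA (0.0568%). Cp, which encodes the copper carrier ceruloplasmin, had a log2 fold change of 2.38 ± 0.12 in LPS versus CTRL (adjusted p = 1.64e-05) and -1.76 ± 0.12 in LPS+DHEA+Nb versus LPS (adjusted p = 8.68e-05). Lcn2, which encodes an iron-siderophore binding lipocalin, measured 139.9 and 103.7 CPM in LPS+DHEA+Nb, 223.8 and 250.1 CPM in LPS+DHEA, 326.9 and 313.7 CPM in LPS, and 127.0 and 124.9 CPM in CTRL. The others called in LPS versus CTRL were Timp1 at 3.46, Serping1 at 1.10 and Steap4 at 2.42, the last named after its value was seen. In LPS+DHEA+Nb versus LPS, Timp1 fell by 1.73, Lcn2 by 1.40 and Steap4 by 2.25 on the log2 scale. Of the 6 negative acute phase genes, whose plasma products fall in inflammation, Rbp4 and Trf were tested, and edgeR and DESeq2 called 0 in LPS versus CTRL, with 0 at an unadjusted p under 0.05.

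Upstream of these genes, 6 of 8 inducing cytokine genes were tested, and edgeR and DESeq2 called 0 in LPS versus CTRL. At an unadjusted p under 0.05 by edgeR there was 1 (Csf3), where 7.11% of all genes tested were. Csf3 had 0 and 4 counts in CTRL and passed the filter only through libraries given LPS. Il6 had 0 counts in 6 libraries, 9 in LPS+DHEA replicate 1 and 5 in LPS replicate 2. Il1b had 66 and 37 counts in LPS+DHEA+Nb, 123 and 65 in LPS+DHEA, 104 and 48 in LPS and 46 and 71 in CTRL. Neither cytokine gene separated the groups given LPS from CTRL. Of 18 receptor and transcription factor genes tested, edgeR called 1 higher in LPS versus CTRL (0.257% of all genes tested). At an unadjusted p under 0.05 there were 10 (7.11% of all genes tested), and DESeq2 called 3. The edgeR call was Socs3, a feedback inhibitor of cytokine signalling, at 2.35 ± 0.31 (adjusted p = 0.00936). Cebpd had 3.82 and 3.03 CPM in LPS+DHEA+Nb, 6.07 and 4.61 CPM in LPS+DHEA, 7.21 and 9.19 CPM in LPS, and 3.26 and 3.56 CPM in CTRL, at an adjusted p of 0.0503 in LPS versus CTRL.

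Downstream, 3 of 10 genes for receptors or binding partners of acute phase proteins rose in LPS versus CTRL, where 0.257% of all genes tested did. They were Tlr2 at 2.06 ± 0.35 (adjusted p = 0.0423), and the formyl peptide receptor genes Fpr1 and Fpr2. Fpr1 and Fpr2 had no counts in CTRL and passed the filter only through libraries given LPS, so this count supports nothing further. Tlr2 measured 1.67 and 1.80 CPM in LPS+DHEA+Nb, 1.94 and 1.60 CPM in LPS+DHEA, 1.75 and 1.76 CPM in LPS, and 0.511 and 0.328 CPM in CTRL. Its 3 LPS-treated groups overlapped, unlike those of Saa3. Cd163, the haptoglobin-haemoglobin receptor gene, was lower in LPS+DHEA+Nb versus LPS at -2.95 ± 0.45 (adjusted p = 0.0318) and was named after its value was seen. Cd163 was not called in LPS versus CTRL, at 0.329 ± 0.4 (adjusted p = 0.941). Its mean level was 0.3151 CPM in LPS+DHEA+Nb, 0.7934 in LPS+DHEA, 2.455 in LPS and 1.954 in CTRL. The libraries of LPS+DHEA and of LPS+DHEA+Nb thus lay below those of CTRL. Of the 10 genes, edgeR called 0 in LPS+DHEA versus LPS and 0 in LPS+DHEA+Nb versus CTRL.

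**Figure D5:**
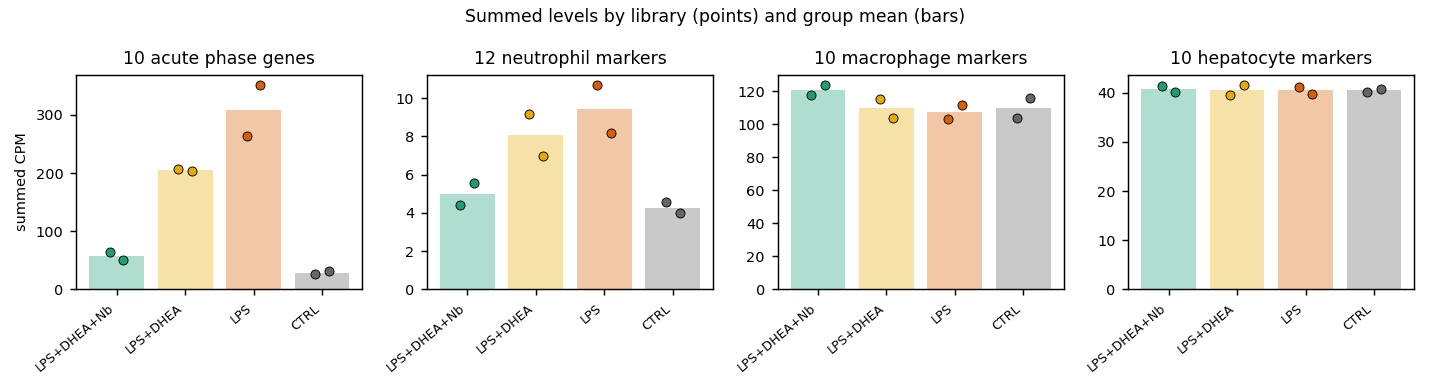
Summed levels in CPM (vertical axes, starting at 0) of the 10 acute phase genes and of marker lists for neutrophils, macrophages and hepatocytes; points are libraries and bars are means of 2. The acute phase sum is 64.8 and 49.9 CPM in LPS+DHEA+Nb, 207.1 and 204.2 in LPS+DHEA, 263.4 and 351.8 in LPS and 26.8 and 30.7 in CTRL, while the hepatocyte sum stays between 39.5 and 41.6.

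Markers of other cell types were summed beside the set. The 10 hepatocyte markers totalled 39.5 to 41.6 CPM in all 8 libraries, of which 38.0 to 40.3 CPM was Apoh, and the albumin gene Alb had 0 to 8 counts per library. The 12 neutrophil markers totalled 4.39 and 5.58 CPM in LPS+DHEA+Nb, 9.17 and 6.97 CPM in LPS+DHEA, 10.7 and 8.17 CPM in LPS, and 4.57 and 3.97 CPM in CTRL. LPS+DHEA overlapped LPS, and LPS+DHEA+Nb overlapped CTRL. Mpo, which made up most of the CTRL sum, did not follow it, with means of 3.43, 2.93, 3.14 and 3.14 CPM in the same order of groups. Of 8 tested, S100a8 was called in LPS versus CTRL, with 2 and 6 counts in LPS+DHEA+Nb, 107 and 34 in LPS+DHEA, 81 and 49 in LPS and 0 in both CTRL libraries. S100a9 had 32 and 8 counts in LPS+DHEA+Nb, 108 and 44 in LPS+DHEA, 155 and 75 in LPS, and 0 and 5 in CTRL. All 8 neutrophil markers tested had a positive log2 fold change in LPS versus CTRL, and 7 lay above CTRL with no overlap, which 18.9% of all genes tested did. Several, among them S100a8, S100a9, Retnlg and Clec4d, passed the filter only through libraries given LPS, so these counts support nothing further. In LPS+DHEA+Nb versus LPS edgeR called 0 of the 8, with 3 at an unadjusted p under 0.05 (6.56% of all genes tested) and 1 by DESeq2. Against LPS+DHEA edgeR called 0, with 2 at an unadjusted p under 0.05 (4.4%) and 1 by DESeq2. Of the 4 not tested, Ly6g, Camp and Elane had 8 counts or fewer and Ltf 11 or fewer in every library. The 10 macrophage markers totalled 117.7 and 123.8 CPM in LPS+DHEA+Nb, 115.3 and 103.7 in LPS+DHEA, 103.3 and 111.5 in LPS, and 103.5 and 115.8 in CTRL. In LPS versus CTRL edgeR called 0 of the 10, with 3 at an unadjusted p under 0.05 (7.11% of all genes tested) and 2 by DESeq2. These 3 went both ways: mean CPM in LPS and CTRL was 1.23 and 3.13 for Cx3cr1, 5.79 and 10.8 for Csf1r, and 7.75 and 4.85 for Adgre1. The 4 peritubular markers totalled 99.1 to 103.6 CPM in LPS+DHEA+Nb, 149.1 to 173.6 in LPS+DHEA, 167.6 to 170.6 in LPS and 90.3 to 98.4 in CTRL, and the smooth muscle actin gene Acta2 was called in LPS versus CTRL (1.10 ± 0.10, adjusted p = 0.000737). The 7 Leydig cell markers totalled 823.1 to 941.8 CPM in LPS+DHEA+Nb, 628 to 645.8 in LPS+DHEA, 698.4 to 726.9 in LPS and 869 to 1018 in CTRL. The 6 fibroblast markers totalled 162.7 to 214.2 CPM in LPS+DHEA+Nb, 188.2 to 218.3 in LPS+DHEA, 181.7 to 297.6 in LPS and 149.4 to 159.2 in CTRL, and Pdgfra was called in LPS versus CTRL (0.86 ± 0.15, adjusted p = 0.0471). The 6 endothelial markers totalled 42.9 to 46.3 CPM in LPS+DHEA+Nb, 46.1 to 48.7 in LPS+DHEA, 46.1 to 57.7 in LPS and 37.9 to 43.5 in CTRL, and the 9 Sertoli cell markers 1072 to 1223, 1258 to 1372, 1312 to 1335 and 1072 to 1084 CPM in the same order of groups. Clu made up most of the Sertoli sum, with means of 728.2, 866.9, 879.5 and 648 CPM in that order. In LPS versus CTRL, 7 of these 9 markers had a positive log2 fold change and 2 a negative one. There edgeR called 0 of the 9, with 1 at an unadjusted p under 0.05 (7.11% of all genes tested) and 1 by DESeq2. The part of the neutrophil, peritubular, fibroblast, endothelial, Sertoli and Leydig cell markers in the acute phase results was not tested.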

How the data were processed

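RNA sequencing of testis covered 8 libraries, grouped by their titles. A stranded kit was used, per the labels' protocols. HISAT and featureCounts 1.5.0-p3 on GRCm38 appear in the submitters' processing notes, with no role given. The authors deposited, for each library, whole values per Ensembl gene, taken here to be estimated counts made without scaling, a unit read from the values; 33.5% of the values between 1 and 40 were multiples of 4, against an even share of 25%. They were tested as counts without rounding, and an alternative divided them by 4. No label states the strand setting or how reads with several matches were counted.

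Genes were filtered with filterByExpr (minimum count 10, minimum total 15) and scaled by TMM (factors 0.985 to 1.015). One edgeR 4.0.16 quasi-likelihood model (R 4.3.3, glmQLFit, robust, 4 group means, 4 residual degrees of freedom, common coefficient of variation 0.231) was fitted to the 8 libraries. The p-values are two-sided, adjusted by Benjamini-Hochberg over 26414 genes in each comparison, and called under 0.05. The SE is the log2 fold change over the root of F. CPM uses TMM-scaled sizes. DESeq2 1.42.0, other scalings, no filter, a replicate block, fits of only the groups compared and leaving out each library were alternatives. Likeness to Saa3 used log2(CPM + 0.1) of genes averaging at least 1 CPM. The text names the members, up to 4 genes per other list with the smallest p in LPS versus CTRL, and, of the 5 genes most like Saa3, 3; the others are not reported here. Outside this rule, Saa4, Il6, Steap4, Cd163, Alb, Mpo, Ly6g, Camp, Elane and Ltf were chosen after their values were seen. Members and lists were chosen with earlier results of these data known. Precision at low counts is limited by counting error.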

Additional observations from a re-analysis of the deposited data

How the results depend on the processing

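With 2 libraries a group, calls near the threshold moved with the fit. LPS versus CTRL kept its direction in each alternative for Saa3, Saa1, Serpina3n and Lrg1, and Lrg1 was called in all 15 in LPS+DHEA+Nb versus LPS. Precision was limited for Saa2, Serpina3m and Orm1, which had at most 75 counts in a library. The causes of the changes below were not tested.

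Without the filter, genes called numbered 140 in LPS versus CTRL, 10 in LPS+DHEA versus LPS, 87 in LPS+DHEA+Nb versus LPS, 42 in LPS+DHEA+Nb versus LPS+DHEA, 80 in LPS+DHEA versus CTRL and 17 in LPS+DHEA+Nb versus CTRL. DESeq2 called 293, 35, 207, 116, 183 and 76 in the same order, and 7, 7, 5 and 2 acute phase genes in LPS versus CTRL, LPS+DHEA+Nb versus LPS, versus LPS+DHEA and versus CTRL. Counts divided by 4 gave 2 acute phase genes in LPS+DHEA+Nb versus LPS+DHEA and 1 versus CTRL. Fits of only the groups compared called 20 genes in LPS+DHEA versus LPS, 19 in LPS+DHEA+Nb versus LPS, 40 versus LPS+DHEA and 61 in LPS+DHEA versus CTRL, and 1, 2 and 1 acute phase genes in LPS+DHEA+Nb versus LPS, LPS+DHEA and CTRL.

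The replicate numbers showed no pairing over all genes tested: the correlation of their differences between groups was -0.038 to 0.06. A pairing that touches few genes cannot be seen in this way. With the replicate block, 1 acute phase gene was called in LPS+DHEA+Nb versus LPS and 2 in LPS+DHEA versus CTRL. On the log2 scale the shares kept were 30.5% and 85% for Saa1, 52.1% and 92.6% for Saa3, 44.2% and 82.6% for Serpina3n, and 17.9% and 73.9% for Lrg1, in LPS+DHEA+Nb and LPS+DHEA.

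Leaving out 1 library gave 66 to 118 genes in LPS versus CTRL, 10 to 24 in LPS+DHEA versus LPS, 43 to 88 in LPS+DHEA+Nb versus LPS, 16 to 64 versus LPS+DHEA, 27 to 65 in LPS+DHEA versus CTRL and 8 to 37 in LPS+DHEA+Nb versus CTRL. Acute phase genes called were 3 to 4, 0 to 0, 1 to 4, 0 to 2, 2 to 4 and 0 to 1 in the same order. A lone library was assumed to vary like the other groups. The shares in LPS+DHEA+Nb ran from 11.5% to 19.6% for Saa1, 8.31% to 11.8% for Saa3, 15.3% to 19.2% for Serpina3n and 6.24% to 9.71% for Lrg1. In LPS+DHEA they ran from 66.5% to 81.1% for Saa1, 59.3% to 84% for Saa3, 53.7% to 67.3% for Serpina3n and 45.4% to 69.5% for Lrg1.

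Log2 fold changes turned sign only in genes not called. In LPS+DHEA+Nb versus CTRL, leaving out a library gave -5.04 to 0.97 for Serpina3m (0.0081 with library size alone and 0.0097 without CTRL replicate 1), -0.14 to 0.31 for Serpina3g, -1.13 to 1.499 for Hp (0.07 without LPS+DHEA+Nb replicate 2) and -0.0012 to 0.93 for Ptx3. In LPS+DHEA versus LPS, Serpina3g ran from -0.04 to 0.22 (-0.0087 without LPS replicate 1).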
